A study of Mus musculus with 24 samples.

Results

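Complement genes made by fibroblasts were followed in sorted mouse colon fibroblasts. The set comprised 6 genes, all with a role in complement: C3, C7, Cfb, Cfd, Serping1 and C1ra. Each gene was taken from a probe set annotated to exactly its symbol, and 4 of the 6 had one: C7, Cfb, Serping1 and C1ra, each with 1 probe set. C3 and Cfd had no probe set under their symbol or Entrez identifier in the annotation used here and were not analysed here. The 4 measured genes stand among 30743 genes tested. The rule matched gene names, and the genes themselves were picked with earlier results of these data known.

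RNA was measured on 24 arrays, 1 per sample. The cells were negative for Epcam, CD45 and CD31 and positive for gp38 (podoplanin, a surface protein of stromal cells). All mice carried an inducible Cre-ERT2 recombinase driven by Villin, a gene of intestinal epithelium, together with ZsGreen. The 3 groups were IhhWT-ApcWT (called WT, 7 arrays), IhhWT-ApcKO (ApcKO, 8 arrays) and IhhKO-ApcKO (IhhKO_ApcKO, 9 arrays). Apc is a brake on Wnt signalling and Ihh is the Hedgehog ligand of the colon epithelium. Villin drives the recombinase in epithelial cells, which the sort for Epcam-negative cells is meant to leave out. The age and sex of the mice, the time since induction and whether each array came from its own mouse are not stated in the labels, so p-values measure the spread between these samples. Arrays are named by codes such as A1; because some codes read like genes, C3 or C7 means an array only where the word array stands before it.

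Complement is a cascade of plasma proteins that tags and lyses microbes and damaged cells. The classical pathway starts with the C1 complex, in which the proteases C1r and C1s cut C4 and C2. The alternative pathway amplifies C3 cleavage through factor B (Cfb) and factor D (Cfd), and the terminal proteins, C7 among them, assemble into the membrane attack complex. Serping1 encodes C1 inhibitor, which blocks C1r and C1s. The liver makes most plasma complement, and fibroblasts are a known local source.

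Values are RMA log2 values, in which 1 unit is a factor of 2. Array medians lay between 4.96 and 5.14, while among 5222 negative controls the median value was 4.6 and the 95th percentile 8.09. Brightness differs between probe sets, so the complement genes are not ranked against each other, and a level of another gene is read only against these controls. The 9 fibroblast markers averaged from 7.58 (Thy1) to 12.51 (Dcn, a matrix proteoglycan), with Pdpn, which encodes gp38, at 10.88. The leukocyte markers ran from 2.95 (Ptprc, CD45) to 9.1 (Cd68), with 1 of 9 below the control median. The adipocyte markers ran from 3.99 (Adipoq) to 5.93 (Plin4), with 2 of 7 below it. No marker of the other lists lay below it: mesothelial markers ran from 4.86 (Lrrn4) to 8.23 (Krt19, also epithelial), and pericyte and smooth muscle markers from 6.5 (Cspg4) to 8.16 (Actg2). Epithelial markers averaged from 6.07 (Krt20) to 8.45 (Krt8) and were uneven between arrays. Their mean per array ran from 6.02 to 8.08 in WT, from 6.26 to 8.42 in ApcKO and from 5.65 to 8.46 in IhhKO_ApcKO. In the array labelled IhhKO_ApcKO B9 the Hedgehog target Gli1 was at 7.99 against 6.64 to 7.05 on the 8 other arrays of its group.

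C7, a terminal pathway protein that joins the membrane attack complex, was by far the most variable of the 4 genes. It ran from 6.94 through a median of 8.57 to 9.59 in WT, from 6.14 through 8.91 to 9.79 in ApcKO, and from 7.26 through 8.04 to 9.7 in IhhKO_ApcKO. Each genotype thus held both high and low arrays, and the ranges of the 3 genotypes overlapped almost whole. Its SD within genotype was 1.14 log2 units, larger than that of 99.7% of the 7700 genes with a mean of at least 7, whose median SD was 0.151. Serping1 lay at the other end, with an SD within genotype of 0.0562, larger than that of 0.351% of the same genes. Cfb, with 0.389, exceeded 97.3% of them and C1ra, with 0.157, exceeded 54.6%.

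**Figure D1:**
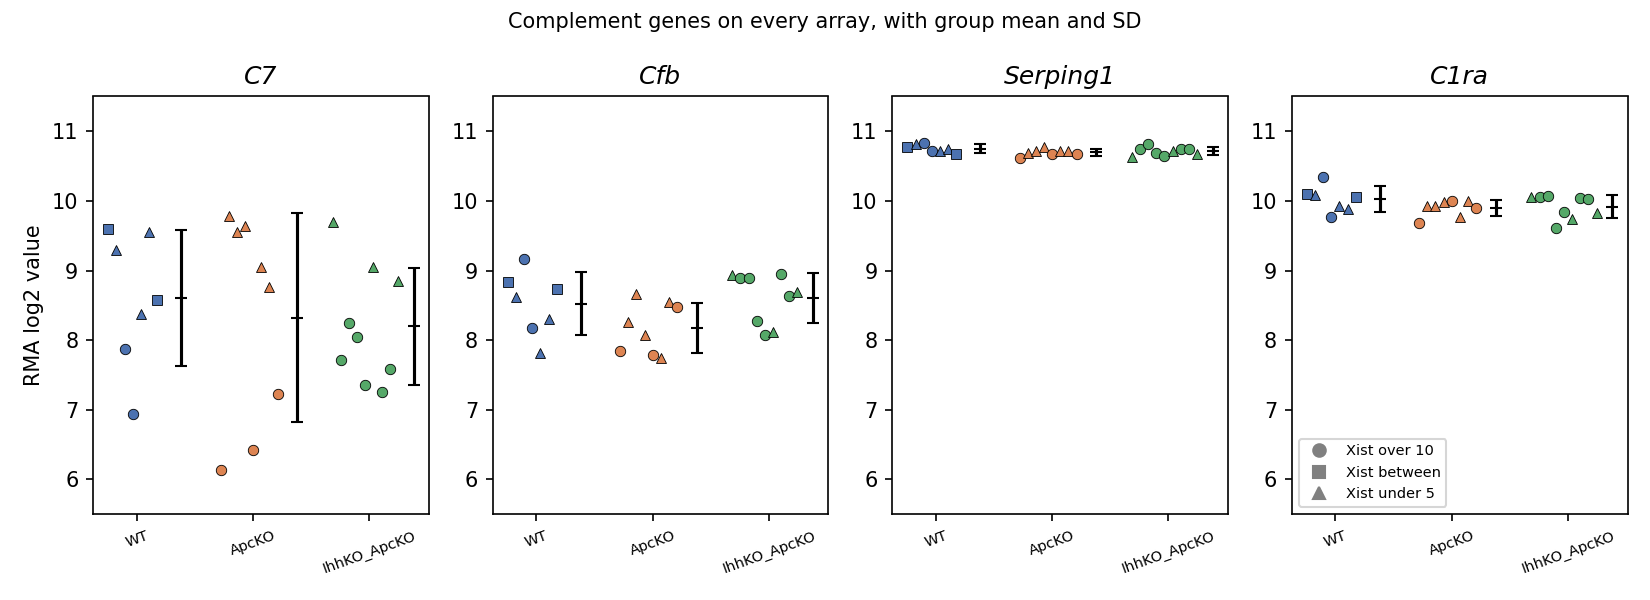
Level of each measured complement gene on every array (RMA log2 value, vertical axis) by genotype. Circles are arrays with Xist over 10, triangles under 5 and squares between; bars give the group mean and SD. C7 spreads from 6.14 to 9.79 with the circles at the bottom of every genotype, and Serping1 stays between 10.61 and 10.83.

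C7 was low wherever Xist was high. Xist is the RNA of the inactive X chromosome of female cells. C7 lay between 6.14 and 8.25, with a median of 7.36, on the 11 arrays with Xist over 10, and between 8.38 and 9.79, with a median of 9.3, on the 11 arrays with Xist under 5. The ranges did not overlap, and 0.0325% of all genes were lower without overlap in the same way. Against the negative controls, the C7 median of 7.36 at high Xist lay between their median of 4.6 and their 95th percentile of 8.09. The arrays with Xist under 5 all lay above that percentile. In a limma model with genotype and Xist as terms, C7 fell by 0.30 log2 units for each log2 unit of Xist (SE 0.035, adjusted p = 3.12e-05, limma). Over the 7.08 log2 units that Xist spanned, fitted C7 fell by 2.1 log2 units, which is 4.29-fold. In the same model 20 genes passed, 0.0651% of those tested, and 0.039% passed on the lower side as C7 did.

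The same order of C7 levels was seen within each genotype. In WT, C7 was at 7.88 on array A3 and 6.94 on array A4, the 2 with Xist over 10, and at 9.3, 8.38 and 9.56 on arrays A2, A5 and A6, the 3 with Xist under 5. In ApcKO it was at 6.14, 6.42 and 7.23 on arrays A9, B4 and B8 with high Xist, and between 8.77 and 9.79 on the 5 others. In IhhKO_ApcKO it lay between 7.26 and 8.25 on 6 arrays with high Xist, and at 9.7, 9.05 and 8.85 on arrays B9, C5 and C9. The low arrays were therefore those with high Xist in all 3 genotypes, with no exception among these 22 arrays. Without array B9 the slope over all genotypes was -0.29 (SE 0.037). Slopes for each genotype came from a single limma model of all arrays. The C7 slope on Xist was -0.23 (SE 0.063) in WT, -0.41 (SE 0.051) in ApcKO and -0.23 (SE 0.051) in IhhKO_ApcKO. These SEs rest on a spread shared by the 3 genotypes and are not those of a genotype fitted alone.

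Y-linked genes gave the same order. The mean of Kdm5d, Eif2s3y and Uty, 3 genes of the Y chromosome, lay between 3.99 and 4.16 on the arrays with Xist over 10 and between 5.84 and 6.68 on those with Xist under 5. With this mean in place of Xist, C7 rose by 0.89 log2 units per unit (SE 0.09, adjusted p = 1.47e-06, limma). The WT arrays A1 and A8 had intermediate Xist, 7.15 and 9.5, beside Y-linked means of 6.38 and 6.28. Their C7 levels of 9.59 and 8.57 lay within the range of the arrays with low Xist. The labels do not give the sex of the mice, and the relation was first seen in these data and then tested on them.

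**Figure D2:**
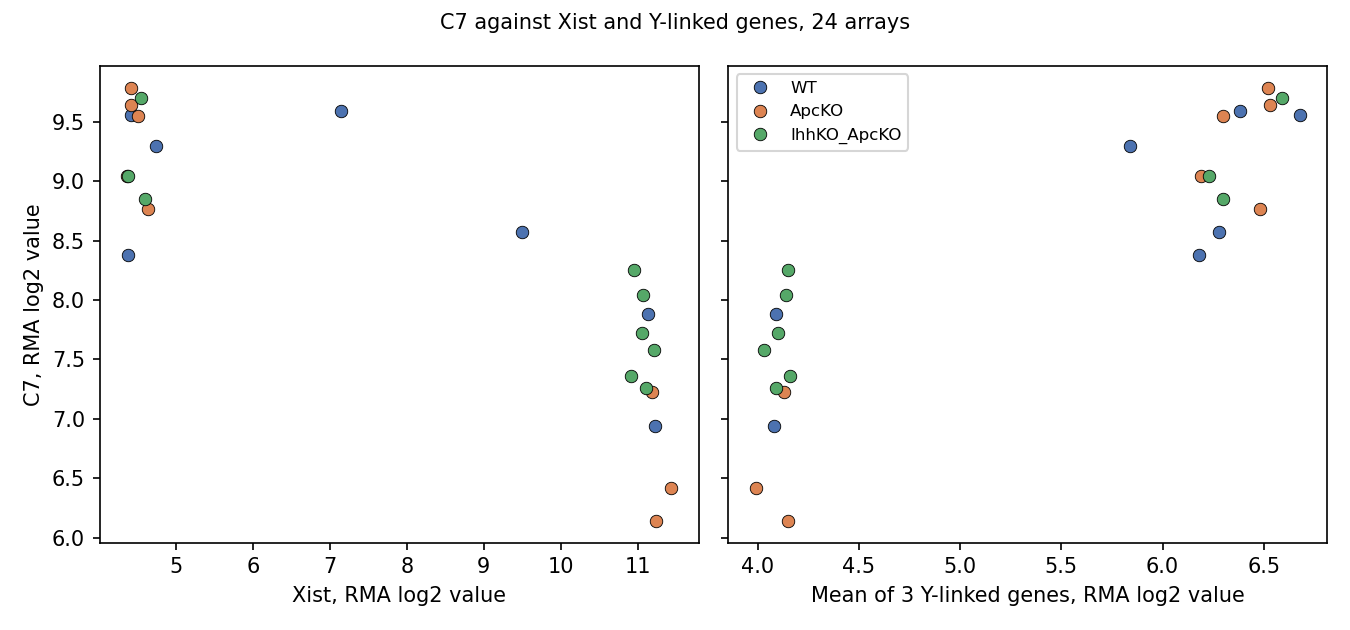
C7 (RMA log2 value, vertical axis) against Xist on the left and the mean of 3 Y-linked genes on the right, 1 point per array, coloured by genotype. Arrays with Xist over 10 sit at or below a C7 of 8.25, and the 2 WT arrays with intermediate Xist sit at 9.59 and 8.57.

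Among the 20 genes that passed for Xist, 8 lie on the X chromosome, 3 on the Y and 9 on autosomes in the RefSeq table for GRCm38.p6. C7 had the smallest p of the autosomal genes and ranked behind Xist, its antisense partner Tsix, the 3 Y-linked genes and the X-linked pseudogenes Gm15065 and Gm14894. The other protein-coding autosomal genes that passed were Stc2, Sult1e1, 9330159F19Rik and Penk, lower at high Xist, and Clvs2, higher. Sult1e1, an enzyme that sulfates oestrogens, had a slope of -0.33 (SE 0.047), and Penk, the precursor of enkephalin peptides, -0.065 (SE 0.013). Sult1e1 and Clvs2 had means of 4.33 and 3.94, below the negative control median of 4.6. Tsix and Xist overlap on opposite strands, and whether their probe sets tell the strands apart is not given in the sources used here. For the other genes of the set the slope on Xist did not pass: it was 0.0081 (SE 0.024) for Cfb, -0.0014 (SE 0.0052) for Serping1 and 0.0047 (SE 0.01) for C1ra, each with an adjusted p of 1 (limma).

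The marker lists of 11 cell types overlapped between the arrays with high and low Xist. CD34-positive and adventitial fibroblast markers had a median of 9.91 on the arrays with Xist over 10 and of 9.91 on those with Xist under 5. Mesothelial markers had medians of 5.92 and 6.17, and epithelial markers 6.7 and 7.38, with overlapping ranges. In bulk samples, fewer cells that make C7 and less C7 RNA per cell cannot be told apart.

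The genes most like C7 over the 24 arrays, by Pearson r of values centred within genotype among genes with a mean of at least 7, were Penk (r = 0.858, Spearman's rho in the same centred values 0.831), 9330159F19Rik (r = 0.82) and Dner (r = 0.793). Dner encodes a Notch-binding membrane protein of neurons. Penk and 9330159F19Rik also passed for Xist, with limma adjusted p of 0.0402 and 0.00483, and Dner did not (slope -0.077, SE 0.018, adjusted p = 0.241, limma). These genes were picked for their likeness, so no p is given for it.

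The promoter of C7 is shown because C7 carried the clearest difference. RefSeq promoters were on hand for 4 of the 6 genes (C3, C7, Cfd and C1ra). That of C7 was searched on both strands for 6 motifs: AGAACA, the hexamer of androgen and glucocorticoid receptors, the palindromic oestrogen receptor element, TTCNNNGAA of STAT factors, the interferon-stimulated element, GACCACCCA of Gli factors and TTGCNNAA of C/EBP factors. Capitals mark a match, and the sequence runs from 250 bases before to 50 bases after the annotated start (RefSeq, GRCm38.p6, chr15:5063724-5064023, minus strand).
C7: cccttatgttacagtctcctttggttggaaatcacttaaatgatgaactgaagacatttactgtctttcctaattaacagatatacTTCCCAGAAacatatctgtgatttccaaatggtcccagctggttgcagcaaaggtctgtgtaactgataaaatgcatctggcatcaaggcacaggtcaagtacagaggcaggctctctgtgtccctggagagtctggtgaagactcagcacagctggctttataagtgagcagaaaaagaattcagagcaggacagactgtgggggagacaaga
The STAT motif, ttcccagaa, lies from base -164 to -156 of the start, and 8.3% of 32851 promoter windows of this length hold that motif. The other 5 motifs have no match in this window. They occur in 19% (AGAACA), 0.07% (oestrogen receptor element), 3.44% (interferon-stimulated element), 0.253% (GACCACCCA) and 10.8% (TTGCNNAA) of all windows.

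The first comparison of genotypes, ApcKO minus WT, asks what epithelial Apc loss did to these genes in the fibroblasts. None of the 4 passed, and 0% of all genes did. All 4 had lower means in ApcKO. Cfb averaged 8.17 ± 0.36 (SD, n = 8) against 8.52 ± 0.45 (SD, n = 7), a log2 difference of -0.35 (SE 0.19, adjusted p = 0.971, limma). C1ra averaged 9.9 ± 0.11 against 10.02 ± 0.19, and all 8 ApcKO arrays lay below the WT mean although the groups overlapped (difference -0.13, SE 0.08, adjusted p = 0.971, limma). Serping1 differed by -0.058 (SE 0.04, 95% interval -0.14 to 0.025) and C7 by -0.28 (SE 0.54, 95% interval -1.38 to 0.83). Without array A9, one of the low C7 arrays, the C7 difference was 0.035, and without array A4, another of them, it was -0.554. With the unadjusted p, 4.41% of all genes were under 0.05 and 0 of the 4 were.

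The second comparison, IhhKO_ApcKO minus ApcKO, asks what loss of epithelial Ihh added. Again none of the 4 passed, where 0.0455% of all genes did. Cfb, the protease that joins C3b in the alternative pathway convertase, came closest. It ran from 7.74 through a median of 8.16 to 8.66 in ApcKO and from 8.08 through 8.69 to 8.95 in IhhKO_ApcKO, so that the groups overlapped while 7 of 9 IhhKO_ApcKO arrays lay above the ApcKO mean. Its mean was 8.6 ± 0.36 (SD, n = 9) against 8.17 ± 0.36 (SD, n = 8). The log2 difference was 0.43 (SE 0.17, 95% interval 0.072 to 0.79), which is 1.35-fold, with an unadjusted exact permutation p of 0.0296 (two-sided) and a limma p of 0.0206. After adjustment over all genes it was 0.86. With the unadjusted limma p, 4.95% of all genes were under 0.05. Beside it, epithelial markers averaged 7.5 ± 0.82 in ApcKO and 7.21 ± 0.92 in IhhKO_ApcKO, and pericyte and smooth muscle markers 7.3 ± 0.17 and 7.06 ± 0.21. With the epithelial marker mean as a covariate the Cfb difference was 0.45 (SE 0.18), and without array B9 it was 0.39 (SE 0.18). The part of the pericyte and smooth muscle markers was not tested.

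C1ra and Serping1 stayed within narrow bounds in this comparison. C1ra ran from 9.69 to 10 in ApcKO and from 9.61 to 10.07 in IhhKO_ApcKO, with a difference of 0.02 (SE 0.075, 95% interval -0.13 to 0.18). Serping1 ran from 10.61 to 10.78 and from 10.63 to 10.82, with a difference of 0.022 (SE 0.038, 95% interval -0.055 to 0.1). For Serping1 the interval reaches from 0.963-fold to 1.07-fold. C7 differed by -0.12 (SE 0.50), with a far wider interval, from 0.448-fold to 1.88-fold. With arrays taken out in turn, the C7 difference turned positive only without array B1, B2 or B3, at 0.088, 0.053 or 0.066. It was lowest without array A9, at -0.434.

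Arrays with high Xist were not evenly spread over the genotypes, with 2 of 7 in WT, 3 of 8 in ApcKO and 6 of 9 in IhhKO_ApcKO. With Xist as a covariate the C7 difference in IhhKO_ApcKO minus ApcKO turned to 0.43 (SE 0.26, adjusted p = 1, limma). Among the arrays with Xist over 10, all 6 IhhKO_ApcKO arrays lay above the 3 ApcKO arrays, the nearest values being 7.26 and 7.23, and 1.82% of all genes were higher without overlap in that way. There the difference was 1.11 (SE 0.28), with an unadjusted limma p of 0.00206 and an adjusted p of 0.395. In the same arrays ApcKO minus WT was -0.81 (SE 0.36, unadjusted p = 0.0454, adjusted p = 0.888, limma) and IhhKO_ApcKO minus WT was 0.29 (SE 0.32, adjusted p = 0.999, limma). The 2 WT arrays there, at 6.94 and 7.88, overlapped with both other genotypes. Among the arrays with Xist under 5 the C7 difference for IhhKO_ApcKO minus ApcKO was -0.16 (SE 0.29). The test of the difference between the 2 slopes on Xist, IhhKO_ApcKO minus ApcKO, gave 0.18 (SE 0.072, unadjusted p = 0.0228, adjusted p = 0.299, limma), and the others of the 4 genes had adjusted p from 0.432 to 0.746. The slopes of C7 differed by -0.18 (SE 0.081, unadjusted p = 0.0397, adjusted p = 0.902, limma) for ApcKO minus WT and by 0.00095 (SE 0.081, adjusted p = 1, limma) for IhhKO_ApcKO minus WT.

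The third comparison, IhhKO_ApcKO minus WT, shares its arrays with both others. None of the 4 passed, where 0.0813% of all genes did. The differences were 0.081 (SE 0.18) for Cfb, -0.035 (SE 0.039) for Serping1, -0.11 (SE 0.078) for C1ra and -0.40 (SE 0.52) for C7, with adjusted p from 0.804 to 0.952 (limma). At an unadjusted p under 0.05 stood 0 of the 4 and 7.63% of all genes. The order of the Cfb means was IhhKO_ApcKO at 8.6, WT at 8.52 and ApcKO at 8.17, and no neighbours in that order differed past the adjusted threshold.

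**Figure D3:**
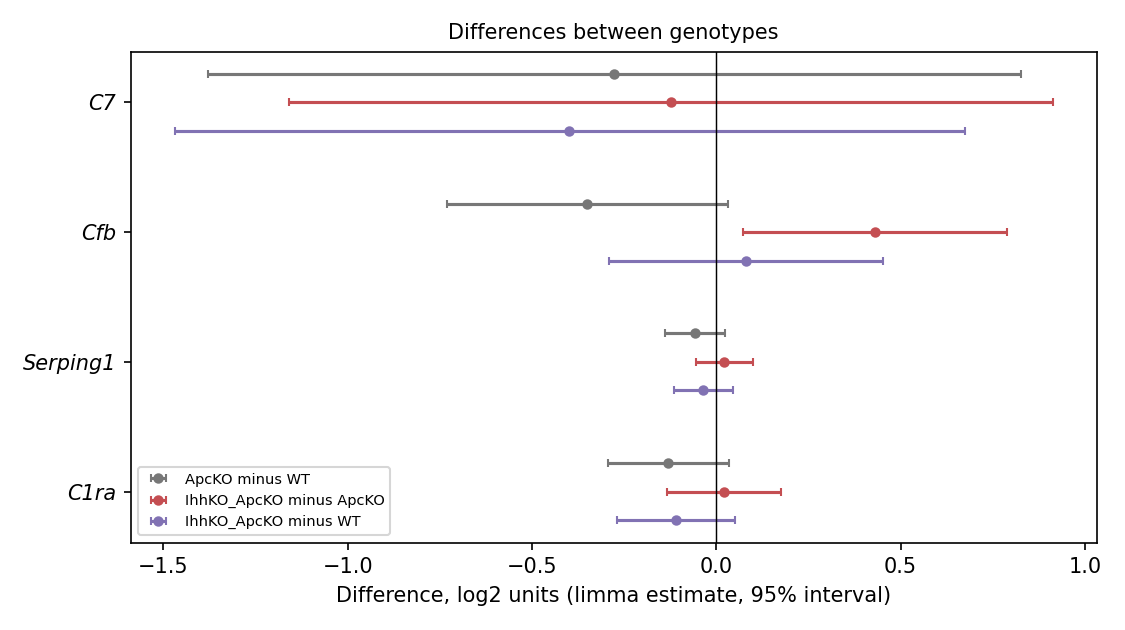
Difference between genotypes for each measured gene (log2 units, horizontal axis), with the limma estimate as a point and its 95% interval as a bar, for the 3 comparisons. The interval of Cfb for IhhKO_ApcKO minus ApcKO runs from 0.072 to 0.79, those of Serping1 are the narrowest, and those of C7 the widest.

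Cfb and C1ra varied together among arrays of the same genotype. Over the 24 arrays, centred within genotype, Pearson's r was 0.735 (permutation p = 7e-05, adjusted over 6 pairs 0.00042) and Spearman's rho was 0.674 (permutation p = 0.00035, adjusted 0.0021). Without the 2 arrays farthest from the median of Cfb, array A5 and array C4, r was 0.761. Within genotypes r was 0.851 in WT, 0.435 in ApcKO and 0.814 in IhhKO_ApcKO. Serping1 and C1ra were related less closely, with r = 0.515 (permutation p = 0.0158, adjusted 0.0475) and rho = 0.563 (permutation p = 0.00723, adjusted 0.0217), and r was 0.419 without arrays A9 and C2. C7 was related to none of the others at an adjusted permutation p under 0.05, with r of 0.23 to Cfb, 0.271 to Serping1 and 0.117 to C1ra. Within genotypes, C7 with Serping1 gave 0.256 in WT, 0.783 in ApcKO and -0.371 in IhhKO_ApcKO, and differences between these were not tested. The Xist level, which C7 followed within genotype, was not taken out of these correlations.

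C1ra also moved with the fibroblast markers themselves. Against the mean of 9 fibroblast markers, r was 0.751 and rho 0.769 (permutation p = 8e-05 for both, adjusted over 44 relations 0.00352), and r was 0.706 without the 2 arrays farthest from the marker median. Within genotypes it was 0.729 in WT, 0.857 in ApcKO and 0.785 in IhhKO_ApcKO. Serping1 was related to the CD34-positive and adventitial fibroblast markers, with r = 0.664 (permutation p = 0.00126, adjusted 0.0277) and rho = 0.657 (permutation p = 0.00145, adjusted 0.0319), and r was 0.648 without the 2 farthest arrays. Within genotypes it was 0.879 in WT, 0.458 in ApcKO and 0.643 in IhhKO_ApcKO. No other of the 44 relations passed, those of C7 and Cfb included, and here too Xist was not taken out. The part of cell makeup in these values was not tested.

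**Figure D4:**
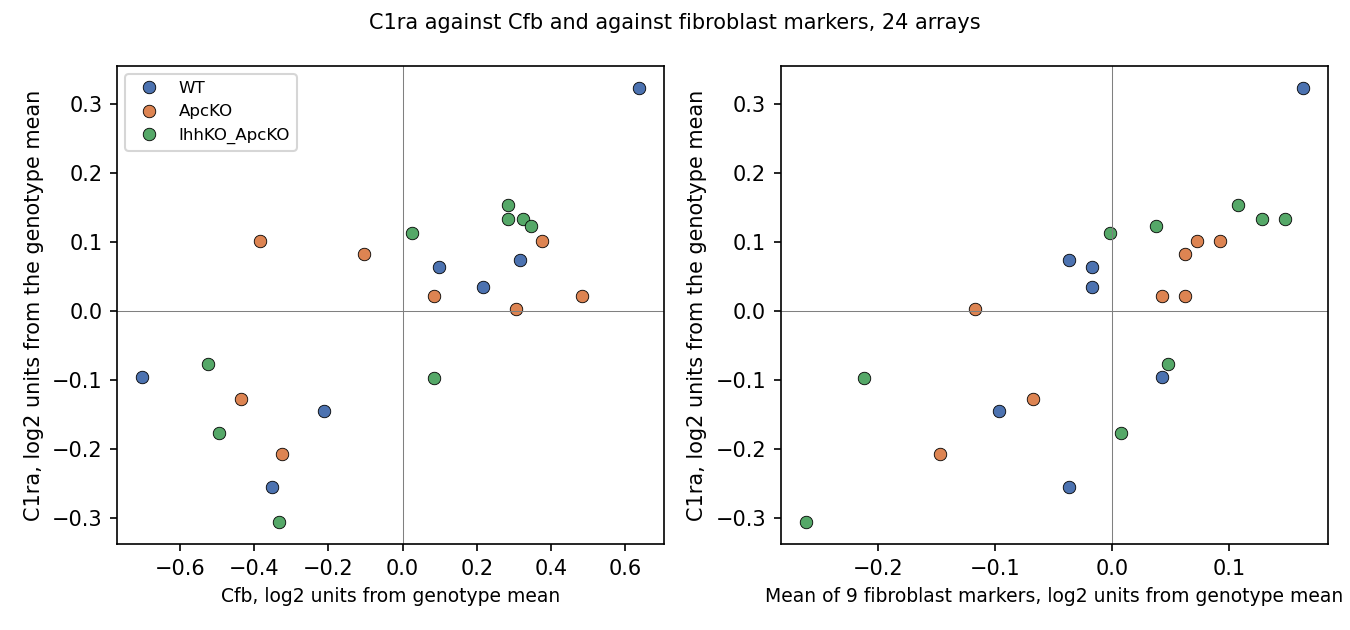
C1ra against Cfb on the left and against the mean of 9 fibroblast markers on the right, each in log2 units from its genotype mean, 1 point per array and coloured by genotype. Points rise to the right in both panels, with r of 0.735 and 0.751.

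The genes most like C1ra, by the same measure as for C7, were C1rb (r = 0.99), Igfbp4 (r = 0.882), which binds insulin-like growth factors, and C1s2 (r = 0.876), a C1s protease. C1rb is the mouse paralogue of C1ra, and shared probe sequence could make 2 probe sets of such close copies read the same RNA, so the C1ra values are uncertain as a measure of C1ra alone. For Cfb they were Trp53-ps (r = 0.775), C1rb (r = 0.771) and the lysosomal protease Ctsh (r = 0.764). Trp53-ps is a pseudogene, whose probe set could read its parent gene. For Serping1 they were Xylt2 (r = 0.773), an enzyme that starts glycosaminoglycan chains, H13 (r = 0.77), a signal peptide peptidase, and Sema3b (r = 0.744), a semaphorin.

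The promoters of C1ra and C1rb are shown because their probe sets gave nearly the same pattern, which may be 1 RNA read by both. Capitals mark matches to the same 6 motifs (RefSeq, GRCm38.p6, chr6:124512371-124512670 for C1ra and chr6:124570180-124570479 for C1rb, both plus strand).
C1ra: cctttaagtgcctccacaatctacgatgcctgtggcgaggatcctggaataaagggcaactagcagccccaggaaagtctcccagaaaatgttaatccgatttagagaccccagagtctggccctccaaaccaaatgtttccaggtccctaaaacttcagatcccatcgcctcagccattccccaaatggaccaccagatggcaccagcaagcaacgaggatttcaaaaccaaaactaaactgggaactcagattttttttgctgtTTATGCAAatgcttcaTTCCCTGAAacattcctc
C1rb: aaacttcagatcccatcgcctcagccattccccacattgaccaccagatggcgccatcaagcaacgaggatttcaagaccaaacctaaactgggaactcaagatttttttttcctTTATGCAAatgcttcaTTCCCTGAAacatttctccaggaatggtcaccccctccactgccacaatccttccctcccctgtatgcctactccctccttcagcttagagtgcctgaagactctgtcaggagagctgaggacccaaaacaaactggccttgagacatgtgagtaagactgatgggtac
A local alignment paired 148 bases of the 2 windows, of which 139 (93.9%) were identical. They run from base -99 to 50 of the C1ra start and from -250 to -102 of the C1rb start. The shared stretch thus spans the annotated start of C1ra and ends before that of C1rb. Both hold the C/EBP motif as ttatgcaa, on the opposite strand, and the STAT motif as ttccctgaa, from 17 to 24 and from 33 to 41 in C1ra and from -135 to -128 and from -119 to -111 in C1rb. These matches describe letters only.

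The other genes of the complement system were taken from a list of 49, of which 46 were measured. Over all genes, 0 of the 46 passed in ApcKO minus WT, 0 in IhhKO_ApcKO minus ApcKO and 0 in IhhKO_ApcKO minus WT (limma), with 1, 7 and 3 at an unadjusted p under 0.05. In IhhKO_ApcKO minus ApcKO the 7 are 15.2% of the list, where 4.95% of all genes had such a p. Their median difference was 0.028 with 31 of 46 positive, where all genes had a median of 0.011 and 56.6% positive. In ApcKO minus WT the median was -0.033 with 13 of 46 positive, where all genes had a median of -0.021 and 39.3% positive. The 2 comparisons share the ApcKO arrays.

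In the classical pathway, the C1 substrates C2 and C4b had lower means in ApcKO than in WT and higher ones in IhhKO_ApcKO. C2, the protease that joins C4b in the classical convertase, averaged 6.53 ± 0.21 (SD, n = 8) in ApcKO, against 6.76 ± 0.25 (n = 7) in WT and 6.87 ± 0.33 (n = 9) in IhhKO_ApcKO. Its difference in IhhKO_ApcKO minus ApcKO was 0.34 (SE 0.12, adjusted p = 0.712, limma). C4b, the classical C4, averaged 10.85 in WT, 10.66 in ApcKO and 10.89 in IhhKO_ApcKO (difference 0.23, SE 0.1, adjusted p = 0.946, limma), and its paralogue C4a 9.2, 9 and 9.22 in the same order (difference 0.21, SE 0.09, adjusted p = 0.889, limma). C4a and C4b are close copies whose probe sets may share signal. The C1s proteases C1s1 and C1s2 differed by -0.015 (SE 0.069) and -0.0054 (SE 0.079).

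Among the regulators, Clu, which encodes clusterin, a secreted inhibitor of the terminal complex, averaged 6.6 ± 0.15 (SD, n = 8) in ApcKO, against 6.86 ± 0.43 (n = 7) in WT and 7.02 ± 0.38 (n = 9) in IhhKO_ApcKO. The difference in IhhKO_ApcKO minus ApcKO was 0.42 (SE 0.15, adjusted p = 0.718, limma). Cd55, decay-accelerating factor, which breaks up convertases on the cell surface, averaged 11.27 ± 0.11 in WT, 11.28 ± 0.08 in ApcKO and 11.48 ± 0.2 in IhhKO_ApcKO. Its differences were 0.2 (SE 0.069, adjusted p = 0.657, limma) against ApcKO and 0.2 (SE 0.072, adjusted p = 0.428, limma) against WT. Its paralogue Cd55b differed by 0.2 (SE 0.093) against ApcKO, and the paralogues may share signal. Cd59a and Cd59b, which block the membrane attack complex on host cells, differed by -0.28 (SE 0.15) and -0.22 (SE 0.1).

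Of the other terminal proteins, Hc (C5), C6, C8a and C9 averaged 3.79, 3.83, 4.37 and 3.13, all below the negative control median of 4.6, while C8b averaged 4.69 and C8g 5.65. The receptor C3ar1, the complement receptor Vsig4 and the integrin Itgam, genes of myeloid cells, averaged 4.1, 3.9 and 4.59. The other receptors listed lay at 5.8 (C5ar1), 5.3 (Itgb2), 4.96 (C5ar2), 4.93 (Itgax) and 3.32 (Cr2). C1qa, C1qb and C1qc, the recognition chains of C1 made by macrophages, averaged 6.27, 5.72 and 5.64. In ApcKO minus WT the smallest unadjusted p on the list belonged to Cfi, the protease that inactivates C3b (difference -0.12, SE 0.055, adjusted p = 0.971, limma), at a mean of 3.89. For the same comparison C5ar1 and C1qa had the lowest p among positive differences, which were 0.17 (SE 0.11) and 0.11 (SE 0.083). In IhhKO_ApcKO minus WT, C8g and C1rl, a C1r-like protease, had the lowest p among negative differences, which were -0.15 (SE 0.067) and -0.15 (SE 0.068). Larger negative differences there belonged to Cd59a, -0.23 (SE 0.16), and Cd59b, -0.17 (SE 0.11).

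**Figure D5:**
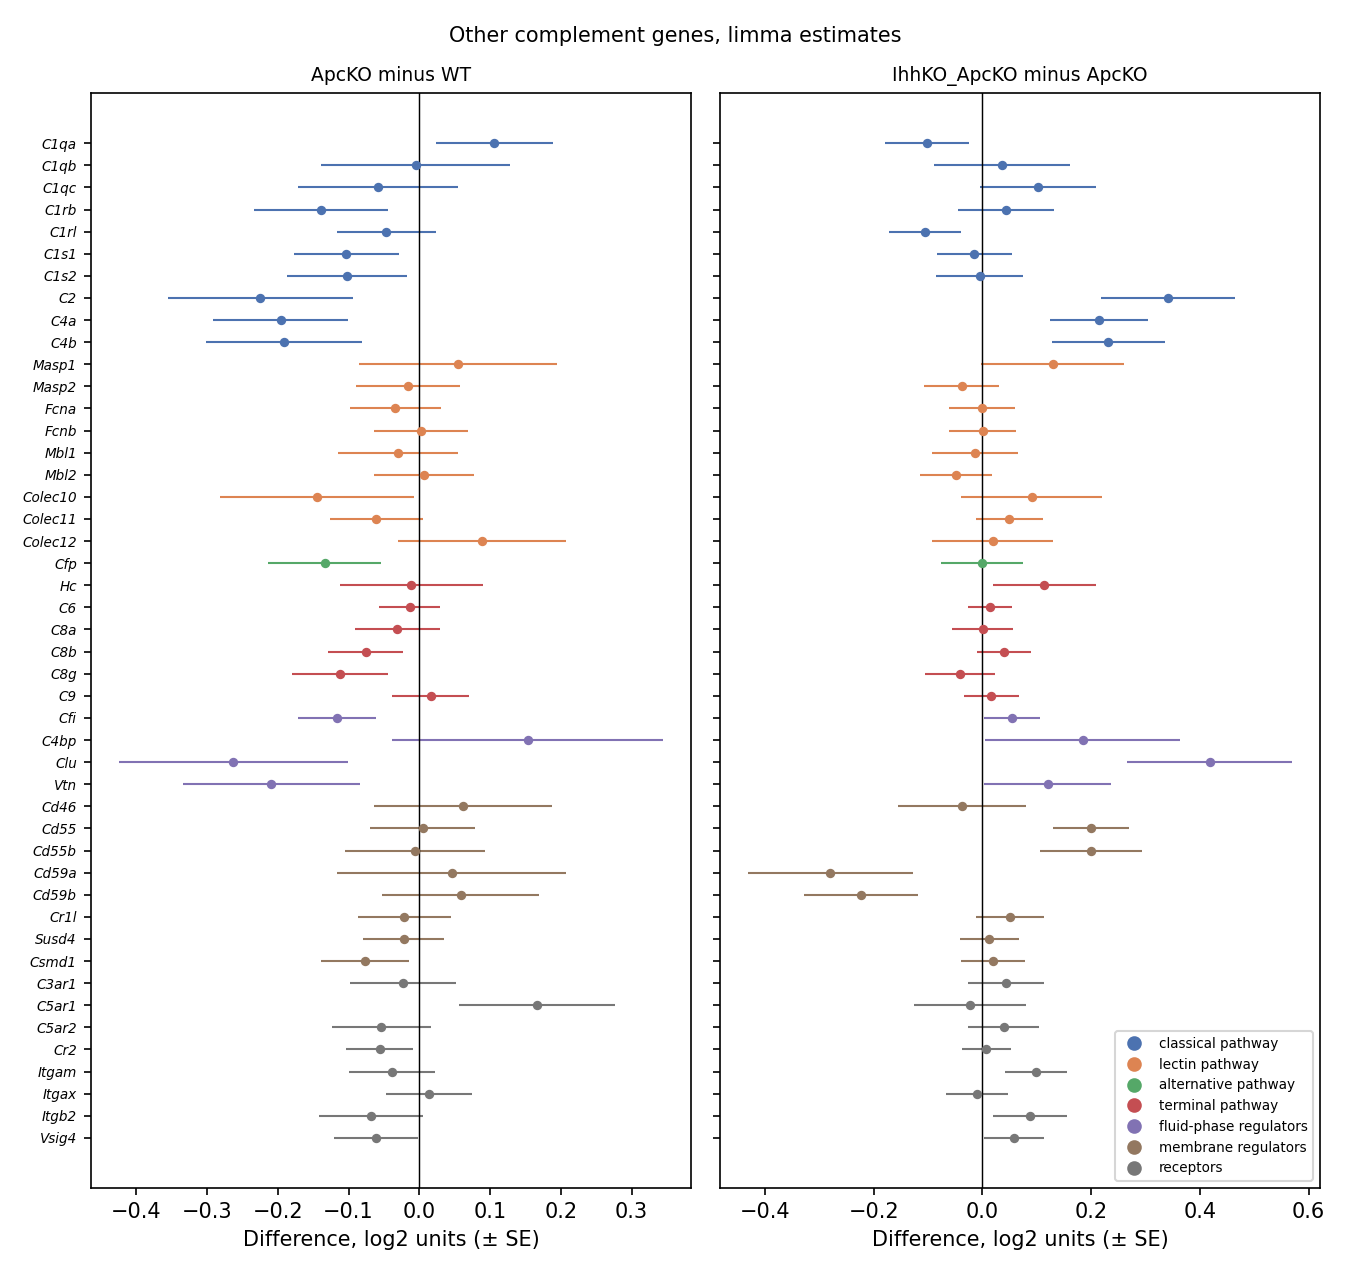
Differences of the 46 other complement genes (log2 units, point with SE) for ApcKO minus WT on the left and IhhKO_ApcKO minus ApcKO on the right, coloured by role. None passed the adjusted threshold. C2, C4a, C4b and Clu sit left of 0 in the left panel and right of 0 in the right panel.

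For Xist within genotype, 0 of the 46 passed (smallest adjusted p = 0.523, limma) and 3 had an unadjusted p under 0.05, or 6.52% where 4.3% of all genes did. No measured complement gene other than C7 passed in any of these comparisons.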

How the data were processed

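RNA of 24 fibroblast samples was measured on Affymetrix MTA 1.0 arrays. Per the labels' protocols, RNA was purified with a DNase step and amplified with a 3' pico kit. The authors deposited RMA log2 values, named as RMA in the submitters' processing notes; no source used here names the software, its version or the build. RMA equalises arrays, so a shift of all genes would be lost. No identical arrays were found.

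Of 65956 non-control probe sets, 31216 had 1 gene symbol, 1534 several and 33206 none here; 874 symbols were updated through Entrez identifiers. The brightest probe set was kept for each of 30743 genes.

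All 24 arrays were fitted in limma 3.58.1 (R 4.3.3) with genotype as the factor, p-values were adjusted by Benjamini-Hochberg over all genes, and 0.05 was the threshold. Exact permutation tests of single genes and correlations with 100000 permutations within genotype were run in Python 3.11.15 with NumPy 2.4.6. Ranks and the adjustment over correlations used SciPy 1.17.1. With 4 genes measured, 6 pairs were correlated. The number of arrays limits the precision. The members and lists were chosen with earlier results of these data known. Named genes were the members, the 3 most like each, and, among other complement genes, the lowest p on each side of each comparison and the 5 with the highest mean; further complement genes, and genes that passed for Xist, were named after their values were seen. The Xist covariate was listed as an adjustment, and reading its slope as a result was decided after values were seen. The model was tested on simulated data. Alternatives covered centring, dim genes, probe set choice, array weights, variance moderation, cell marker, Xist and Y-linked covariates, code letter and left-out arrays.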

Additional observations from a re-analysis of the deposited data

How the results depend on the processing

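No difference of C7, Cfb, Serping1 or C1ra between genotypes passed under any alternative (31 for ApcKO minus WT, 33 with IhhKO_ApcKO minus ApcKO, 32 with IhhKO_ApcKO minus WT). The Cfb difference for IhhKO_ApcKO minus ApcKO stayed positive in all 33, from 0.324 to 0.708, with adjusted p from 0.494 to 1 (limma). The C7 slope on Xist passed without each of the 24 arrays in turn, from -0.316 to -0.275, with adjusted p from 3.51e-06 to 0.000161 (limma).

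The number of genes called, at first 0 (ApcKO minus WT), 14 (IhhKO_ApcKO minus ApcKO) and then 25 (IhhKO_ApcKO minus WT), moved as follows, and the cause was not tested. It was 8 and 16 for the last 2 with arrays centred on their median gene, 65 and 45 with array weights, and 113, 51 and 82 for all 3 with the code letter as a block. It was 23 for IhhKO_ApcKO minus ApcKO with dim genes left out. It was 7 for IhhKO_ApcKO minus WT with only those arrays, 14 with the Y-linked covariate and 8 with centring on fibroblast markers. It was 0 and 0 among arrays with Xist under 5, and 1 and 1 among those over 10, where fewer arrays entered. Without single arrays it ran from 8 to 41, from 12 to 67 and, for ApcKO minus WT, from 0 to 0. The highest counts, 41 and 67, came without array B9, labelled IhhKO_ApcKO, whose Gli1 was at 7.99.

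With the code letter as a block, uncalled differences also grew in size. ApcKO minus WT was then -2.46 for C7 (unadjusted p = 0.0181, adjusted p = 0.333, limma), -0.335 for C1ra (0.0488 and 0.483), -0.672 for Cfb and -0.147 for Serping1, against -0.277, -0.13, -0.35 and -0.0575 without it. IhhKO_ApcKO minus WT was -1.39 for C7, -0.223 for Serping1 and -0.212 for C1ra. By their codes, A9 is the only ApcKO array with letter A and B9 the only IhhKO_ApcKO array with letter B, so these values rest on those arrays. Values turned sign as follows. For IhhKO_ApcKO minus ApcKO, C7 was 1.07 with the letter block, 0.425 with the Xist covariate, 1.11 at Xist over 10, 0.473 with the Y-linked covariate and 0.0101 with fibroblast centring. Without single arrays it ran from -0.434 to 0.0876. Serping1 was -0.076 with the letter block and -0.0437 at Xist under 5, and C1ra was -0.0446 there and -0.00909 to 0.0585 without single arrays. For IhhKO_ApcKO minus WT, C7 was 0.00495 with the Xist covariate, 0.125 at Xist under 5, 0.292 over 10 and 0.293 with the Y-linked covariate. Cfb was -0.047 at Xist over 10 and -0.0363 to 0.186 without single arrays. With fibroblast centring Serping1 was 0.111 and C1ra 0.0367. For ApcKO minus WT at Xist under 5, C7 was 0.284 and Cfb 0.0042, and C7 ran from -0.554 to 0.0351 without single arrays. Slopes on Xist without single arrays ran from -0.00375 to 0.0182 for Cfb, -0.00349 to 0.000539 for Serping1 and -0.00134 to 0.0102 for C1ra. In IhhKO_ApcKO alone, the correlation of C7 was -0.371 with Serping1 and -0.121 with C1ra.

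The Xist classes, the Y-linked covariate, the fibroblast centring and the slopes without single arrays were chosen after seeing the data. No paired analysis was possible because the array codes are not shared between genotypes. The labels do not say what the code letter stands for, and it goes largely with genotype.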
